A study of Mus musculus with 12 samples.

Results

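The Batf family comprises the basic leucine zipper (bZIP) transcription factor genes Batf, Batf2 and Batf3. They were taken by gene symbol and made up 3 of the 22184 genes that could be named on 12 expression arrays of mouse dendritic cells (DCs) and their progenitors. Each member was read by 1 probe set that listed no other gene: 17277404 for Batf, 17356662 for Batf2 and 17220787 for Batf3. All mice were C57Bl/6, were studied untreated at steady state and had 1 copy of Zbtb46, which marks classical DCs, carrying a GFP reporter. The series description states sorts of over 95% purity from 8 to 10 littermates. Which mice or pools stand behind an array is not labelled, so the p-values reflect the spread among arrays alone, and that spread may be technical.

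From bone marrow came common DC progenitors (CDP, n = 3), lineage-negative cells with intermediate CD117 that carried CD135 and CD115 and lacked CD11c and MHC class II. Marrow pre-CD8 cells (n = 2) were lineage-negative, CD135 and CD11c positive, CD117 intermediate, Siglec H negative and MHC class II intermediate. Marrow pre-CD4 cells (n = 2) were lineage-negative, CD135, CD115 and CD11c positive, CD117 low and MHC class II negative. From spleen came CD24 DCs (n = 3), positive for CD11c and CD24 and negative for CD172a, and CD172a DCs (n = 2), which carried CD172a, CD11c and MHC class II. In current names CD24 DCs are cDC1s and CD172a DCs are cDC2s, and pre-CD8 and pre-CD4 cells are taken as their committed progenitors.

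Batf proteins consist of little more than the DNA-binding basic region and the leucine zipper. They pair with Jun proteins and bind AP-1 sites, and with IRF4 or IRF8 they occupy composite AP-1 and IRF elements. Batf3 is required for the development of cDC1s, in which it acts together with IRF8. Batf is best known from T and B lymphocytes, and Batf2 as a gene that interferon induces in macrophages. Batf and Batf2 can each stand in for Batf3 in DC development when they are expressed at sufficient levels.

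The 250 bases upstream of the annotated start of Batf3 and of Batf are shown because the transcript of Batf3 differed by many fold among these populations and that of Batf by little. Both come from RefSeq (GRCm38.p6, forward strand), at chr1:191098164-191098413 for Batf3 and at chr12:85686470-85686719 for Batf. Capitals mark E-boxes (CANNTG, palindromic) and GC boxes (GGGCGG on either strand).
Batf3: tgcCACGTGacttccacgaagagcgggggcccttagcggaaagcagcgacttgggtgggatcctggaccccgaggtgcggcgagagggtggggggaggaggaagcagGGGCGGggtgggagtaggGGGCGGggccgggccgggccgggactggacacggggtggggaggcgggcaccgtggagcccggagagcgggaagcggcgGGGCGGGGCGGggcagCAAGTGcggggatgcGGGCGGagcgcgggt
Batf: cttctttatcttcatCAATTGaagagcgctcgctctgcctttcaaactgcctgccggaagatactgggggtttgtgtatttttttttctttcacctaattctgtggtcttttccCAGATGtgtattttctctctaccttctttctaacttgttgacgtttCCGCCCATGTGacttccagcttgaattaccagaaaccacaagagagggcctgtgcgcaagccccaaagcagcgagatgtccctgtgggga
The Batf3 stretch was 76.0% G or C, above 96.67% of 32851 upstream windows of the same length, and the Batf stretch was 46.4%, above 28.431% of them. The Batf3 stretch held 5 GC boxes, 2 of which share a base, and 2 E-boxes, at -247 and -30 relative to the start. The Batf stretch held 3 E-boxes, at -235, -136 and -85, and 1 GC box on the reverse strand, which shares a base with the last of them. A GC box occurred in 32.742% of all windows and an E-box in 66.217%. Batf3 also held 1 match to the STAT-type motif TTCNNNGAA (7.02% of windows), outside the capitals. Neither stretch held the letters of an AP-1 site (TGANTCA on either strand, 6.749% of windows). These matches describe letters in a window and say nothing of binding.

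Array means of all probe sets lay between 5.28 and 5.34 on the log2 scale, and array medians between 4.89 and 5.24. Interquartile ranges of the arrays ran from 2.10 in CD24 DC array 3 to 2.86 in CDP array 1. Levels are given as log2 values as deposited, and no level is compared between genes because probe sets differ in response. The sort labels were set against marker genes. Mean cDC1 markers (4 of 5 measured) read 9.22 to 9.78 in CD24 DCs against 5.94 to 6.00 in CD172a DCs. Mean cDC2 markers (6 of 6) read 4.56 to 4.65 in CD24 DCs against 7.01 to 7.29 in CD172a DCs. Of these 6, Sirpa, Clec4a4, Itgam and Irf4 were higher in CD172a DCs, and Sirpa encodes CD172a, the sort antigen. Esam averaged 5.46 in CD24 DCs and 5.49 in CD172a DCs. Clec10a averaged 3.00 in CD24 DCs and 3.52 in CD172a DCs, below its 4.97 in pre-CD4 cells. The label calls CD24 DCs MHC class II negative, but the class II gene H2-Ab1 read 12.16, 12.06 and 12.35 in them, against 6.67, 6.70 and 6.41 in CDPs. Neutrophil markers (6 of 6) differed within groups, from 6.64 to 10.53 in pre-CD8 cells and 4.76 to 7.12 in CD24 DCs. They ran from 4.79 to 7.33 in CD172a DCs and from 6.32 to 8.82 in CDPs. Markers of plasmacytoid DCs (pDCs, 6 of 6) averaged 8.35 and 7.97 on the pre-CD4 arrays and 6.00 to 6.75 on all others. Siglech, Bst2, Tcf4, Spib and Ly6d had their highest group mean in pre-CD4 cells, and Ccr9 its lowest (4.52). The part of pDC markers in the pre-CD4 values was not tested.

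Batf3 was the member that separated the populations. It was high in pre-CD8 cells and in both spleen DC populations, and low in CDPs and pre-CD4 cells. The values were 4.53, 5.38 and 4.97 in CDPs, 9.77 and 9.24 in pre-CD8 cells, 6.15 and 5.70 in pre-CD4 cells, 9.62, 9.50 and 8.91 in CD24 DCs, and 7.42 and 9.06 in CD172a DCs. Every pre-CD8, CD24 DC and CD172a DC array lay above every CDP and pre-CD4 array. Of all genes, 36.1% were likewise separate between pre-CD8 cells and CDPs, 37.6% between CD24 DCs and CDPs and 58.7% between CD172a DCs and CDPs. Against pre-CD4 cells the shares were 33.9% for pre-CD8 cells, 36.1% for CD24 DCs and 60.5% for CD172a DCs. In sorted bulk samples, a change in the share of cells that express a gene cannot be told apart from a change in RNA per cell.

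**Figure D1:**
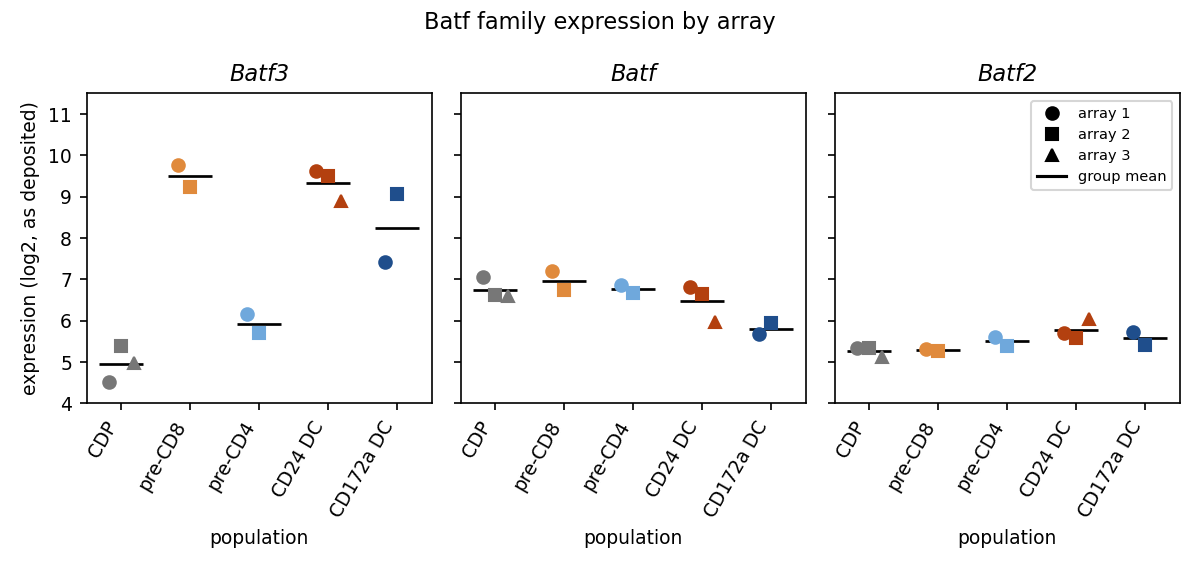
Expression of Batf3, Batf and Batf2 on each of the 12 arrays. The x axis gives the population in developmental order and the y axis the log2 value as deposited. Points are arrays, with shape for the array number, and bars are group means. Batf3 sits at 9.24 and 9.77 in pre-CD8 cells and between 4.53 and 5.38 in CDPs, while no group mean of Batf2 lies outside 5.27 to 5.77.

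The first question was what distinguishes each committed progenitor from the CDP. Batf3 averaged 9.50 ± 0.37 in pre-CD8 cells (SD, n = 2) and 4.96 ± 0.43 in CDPs (n = 3). The difference was 4.55 ± 0.41 log2 units (SE), a 23.4-fold higher signal in pre-CD8 cells with an adjusted p of 2.83e-05 in limma. Ordered by this difference Batf3 had rank 12 of the 22184 genes, of which 2.29% were called higher (Benjamini-Hochberg adjusted p under 0.05). Batf3 was 1 of 3 members called, against 4.76% of all genes in either direction. The neutrophil marker mean was 6.64 and 10.53 in the pre-CD8 arrays and 6.32, 8.82 and 8.71 in the CDP arrays. Batf3 was also called in each fit that left out 1 of the 12 arrays, with differences from 4.28 to 4.81.

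In pre-CD4 cells Batf3 averaged 5.93 ± 0.32 (n = 2), against 4.96 ± 0.43 in CDPs. Both pre-CD4 arrays lay above all 3 CDP arrays, and these groups did not overlap for 36.5% of all genes. The difference of 0.97 ± 0.41 did not pass the threshold (adjusted p = 0.271, 95% interval 0.08 to 1.85). No member was called in pre-CD4 cells against CDPs by limma, where 4.54% of genes were, and Batf3 was the 1 member with an unadjusted p under 0.05 (0.0343).

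The 2 committed progenitors were then compared directly. Batf3 averaged 9.50 in pre-CD8 cells and 5.93 in pre-CD4 cells, and the lower pre-CD8 array stood well above the higher pre-CD4 array. The difference was 3.58 ± 0.45, 11.9-fold higher in pre-CD8 cells, with an adjusted p of 0.00145. It had rank 6 among all genes ordered by this difference. Batf3 was 1 of 3 members called, where 0.703% of all genes were called in either direction and 0.383% higher.

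In spleen the lineage difference of Batf3 was not called. Batf3 averaged 9.34 ± 0.38 in CD24 DCs (n = 3) and 8.24 ± 1.15 in CD172a DCs (n = 2), a difference of 1.10 ± 0.41 (adjusted p = 0.173). The CD172a DC arrays lay far apart. Array 2 read 9.06, within the CD24 DC range of 8.91 to 9.62, and array 1 read 7.42, below it. Without array 2 the difference was 1.92 and was called (adjusted p = 0.0161), and without array 1 it was 0.28 (adjusted p = 0.967). The cDC1 marker mean was 6.00 in CD172a DC array 1 and 5.94 in array 2, and the mean over 20 genes of the cDC1 lineage, described below, was 6.53 and 6.54. The neutrophil marker mean was 7.33 in array 1 and 4.79 in array 2, and the part of either marker set in the Batf3 values was not tested.

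No member was called between CD24 DCs and CD172a DCs by limma, where 5.59% of genes were called. At an unadjusted p under 0.05 there were 2 members, Batf3 (0.0186) and Batf (0.0282). Whether the lineage difference itself changed between stages was tested as a contrast of contrasts. For Batf3 the spleen difference minus the marrow difference was -2.48 ± 0.61 with an adjusted p of 0.0834, so the change did not pass the threshold, where 1.03% of genes passed. It was called after quantile normalization (-2.58, adjusted p = 0.0332) and without CD172a DC array 1 (-3.29, adjusted p = 0.0133).

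**Figure D2:**
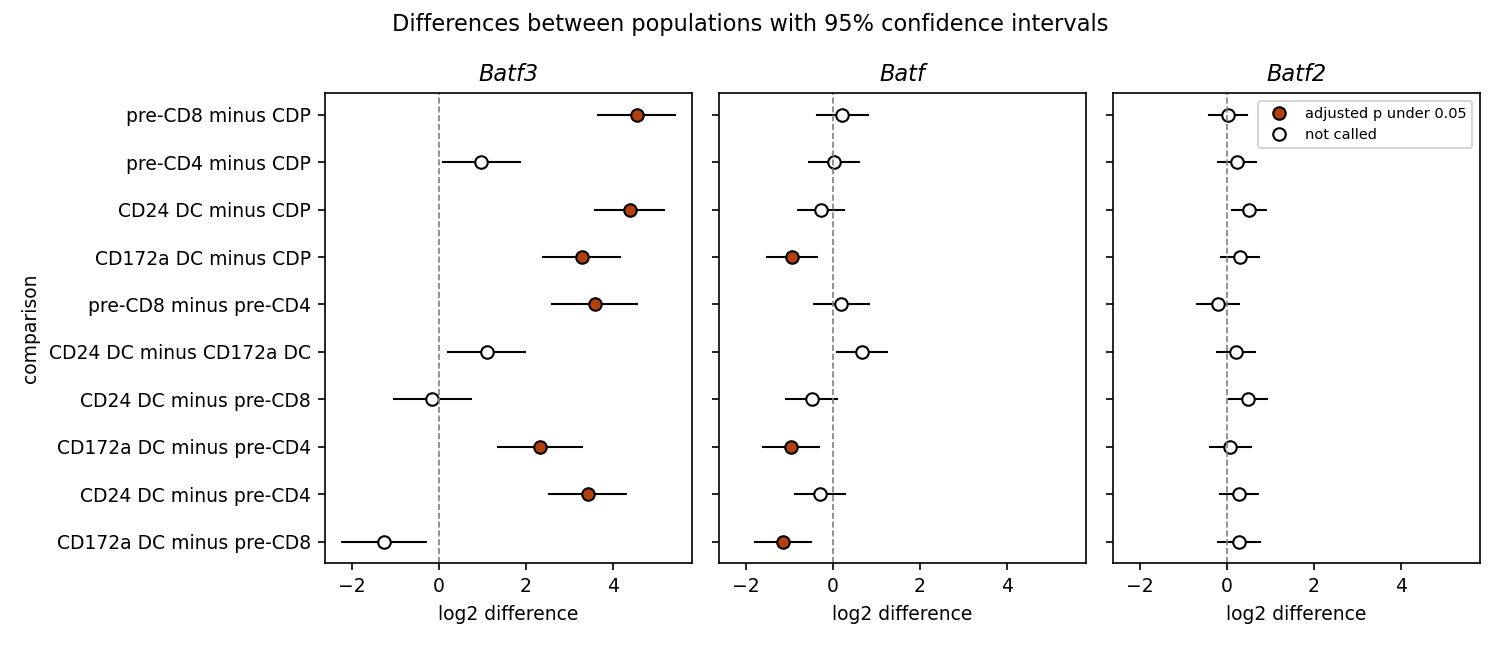
Differences of Batf3, Batf and Batf2 between populations in the 10 pairwise comparisons. The x axis gives the log2 difference of the population named first minus the other, with 95% confidence intervals of the limma fit, and filled points have an adjusted p under 0.05. Batf3 has 6 filled points, Batf 3, all below 0, and Batf2 none.

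Along the CD24 lineage no change of Batf3 between marrow and spleen was called. It averaged 9.34 in CD24 DCs and 9.50 in pre-CD8 cells, with overlapping arrays and a difference of -0.16 ± 0.41 (adjusted p = 0.887). The 95% interval of that difference was -1.05 to 0.72. In CD24 DCs against CDPs Batf3 was 20.9-fold higher (4.38 ± 0.37, adjusted p = 2.26e-06), at rank 53 of all genes. It was 1 of 3 members called there, where 21.1% of all genes were called and 8.3% were called higher. No member was called in CD24 DCs against pre-CD8 cells by limma, where 6.31% of genes were, and Batf2 was the 1 member with an unadjusted p under 0.05 (0.0337).

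Along the CD172a lineage Batf3 rose between marrow and spleen. It averaged 8.24 ± 1.15 in CD172a DCs and 5.93 ± 0.32 in pre-CD4 cells, and the arrays did not overlap. The difference was 2.31 ± 0.45, 4.98-fold higher in CD172a DCs (adjusted p = 0.0039). Leaving out CD172a DC array 2 gave a difference of 1.50, and leaving out array 1 gave 3.13. Either fit kept 1 CD172a DC array, so the spread within that group did not enter it. With Batf, described below, 2 of 3 members were called, against 12.7% of all genes and 4.7% called higher. CD172a DCs also exceeded CDPs in Batf3, by 3.28 ± 0.41 or 9.74-fold (adjusted p = 8.79e-05). That comparison called 2 of 3 members and 22.8% of all genes, and it called 8.68% of all genes higher.

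Across lineages, Batf3 in CD24 DCs was 10.7-fold above pre-CD4 cells (3.42 ± 0.41, adjusted p = 7.53e-05), where it was 1 of 3 members called, 11.4% of genes were called and 4.44% were called higher. Both CD172a DC arrays read below both pre-CD8 arrays in Batf3, groups that did not overlap for 54.3% of all genes, and the difference of -1.26 ± 0.45 was not called (adjusted p = 0.104). Without CD172a DC array 2 that difference was -2.08 and was called (adjusted p = 0.00991), and without array 1 it was -0.45. Ordered by mean, Batf3 ran from CDPs (4.96) over pre-CD4 cells (5.93), CD172a DCs (8.24) and CD24 DCs (9.34) to pre-CD8 cells (9.50). The only neighbours in this order that differed past the threshold were CD172a DCs and pre-CD4 cells.

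Batf moved in a narrower range and in another direction. Its values were 7.06, 6.61 and 6.59 in CDPs, 7.20 and 6.73 in pre-CD8 cells, 6.88 and 6.68 in pre-CD4 cells, 6.82, 6.65 and 5.96 in CD24 DCs, and 5.67 and 5.95 in CD172a DCs. The marrow populations overlapped one another, and the CD172a DC arrays were the lowest of the 12. CD24 DC array 3 came next. These arrays also had the narrowest interquartile ranges over all probe sets, 2.17 and 2.35 in CD172a DCs and 2.10 in CD24 DC array 3. The part of array range in the Batf values was not tested. Batf was 1.92-fold lower in CD172a DCs than in CDPs, with means of 5.81 ± 0.20 and 6.75 ± 0.27 and a difference of -0.94 ± 0.27 (adjusted p = 0.0225). In this comparison 14.2% of all genes were called lower. The call was lost without either CD172a DC array (-0.80 and -1.08, adjusted p = 0.183 and 0.0572) and without CDP array 1 (-0.79, adjusted p = 0.0847).

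Against the progenitor of its own lineage, Batf was 1.95-fold lower in CD172a DCs, with means of 5.81 ± 0.20 and of 6.78 ± 0.14 in pre-CD4 cells. The difference of -0.96 ± 0.30 stood just inside the threshold (adjusted p = 0.0491), where 8.02% of genes were called lower. It was not called after quantile normalization (-0.89, adjusted p = 0.0526), nor without CD172a DC array 1 or 2, pre-CD4 array 1 or 2, pre-CD8 array 1 or 2, CD24 DC array 2, or CDP array 2 or 3, with differences from -1.10 to -0.83. Against pre-CD8 cells (6.97 ± 0.33) Batf was 2.23-fold lower in CD172a DCs (-1.15 ± 0.30, adjusted p = 0.0254). It was the 1 member called of 3, where 9.41% of all genes were called and 5.94% were called lower. That call was lost without CD172a DC array 1 (-1.02, adjusted p = 0.189), array 2 (-1.29, adjusted p = 0.0616) or pre-CD8 array 1 (-0.92, adjusted p = 0.235).

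In CD24 DCs Batf averaged 6.48 ± 0.45 and was not called against any population. Against CD172a DCs the difference was 0.67 ± 0.27 (adjusted p = 0.224). The lowest CD24 DC array, array 3 at 5.96, lay just above the higher CD172a DC array at 5.95, and arrays of these populations were likewise separate for 27% of all genes. Without CD24 DC array 3 the difference was 0.92 and was called (adjusted p = 0.0395). Against pre-CD8 cells it was -0.49 ± 0.27 (adjusted p = 0.393) and against CDPs -0.28 ± 0.24 (adjusted p = 0.444). Among the marrow populations Batf differed by 0.21 ± 0.27 between pre-CD8 cells and CDPs, by 0.02 ± 0.27 between pre-CD4 cells and CDPs, and by 0.19 ± 0.30 between pre-CD8 and pre-CD4 cells. Each of these 3 had a 95% interval within -0.56 to 0.83. The sign of these marrow differences changed when single arrays were left out.

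Because Batf is used by lymphocytes, lymphocyte markers are given beside it. The T cell marker mean (4 of 6 measured) was 4.68 and 4.45 in the CD172a DC arrays and 3.96, 4.20 and 4.12 in the CDP arrays. The B cell marker mean (4 of 5 measured) was 5.70 and 5.73 in CD172a DCs and 5.35, 5.07 and 5.20 in CDPs. The B cell genes did not move together, since Ms4a1, which encodes CD20, averaged 6.67 in CD172a DCs and 4.11 in CDPs, while Cd79b, a B cell receptor chain, averaged 6.59 in CD172a DCs and 7.57 in CDPs. The part of lymphocyte markers in the Batf values was not tested. Ordered by mean, Batf ran from CD172a DCs (5.81) over CD24 DCs (6.48), CDPs (6.75) and pre-CD4 cells (6.78) to pre-CD8 cells (6.97), and no neighbours in this order differed past the threshold.

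Batf2 stayed within a narrow band in all populations. It read 5.34, 5.34 and 5.13 in CDPs, 5.32 and 5.27 in pre-CD8 cells, 5.61 and 5.39 in pre-CD4 cells, 5.71, 5.58 and 6.04 in CD24 DCs, and 5.73 and 5.42 in CD172a DCs. All 5 spleen arrays read above every CDP and pre-CD8 array. Groups were likewise separate for 28.8% of all genes between CD24 DCs and pre-CD8 cells and for 54.3% between CD172a DCs and pre-CD8 cells. The lowest group mean was 5.27 ± 0.12 in CDPs and the highest 5.77 ± 0.24 in CD24 DCs. This largest difference, 0.50 ± 0.18, missed the threshold (adjusted p = 0.0655, unadjusted p = 0.0154), although the groups did not overlap, as for 37.6% of all genes. It was called when only genes at or above the 40th percentile of mean level were tested (adjusted p = 0.0386).

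None of the 10 pairwise differences of Batf2 was called by limma, and 2 of them, both of CD24 DCs, had an unadjusted p under 0.05. CD24 DCs exceeded pre-CD8 cells by 0.48 ± 0.20 (adjusted p = 0.232), pre-CD4 cells by 0.27 ± 0.20 (adjusted p = 0.461) and CD172a DCs by 0.20 ± 0.20 (adjusted p = 0.769). CD172a DCs differed from CDPs by 0.31 ± 0.20 (adjusted p = 0.296), from pre-CD8 cells by 0.28 ± 0.22 (adjusted p = 0.501) and from pre-CD4 cells by 0.08 ± 0.22 (adjusted p = 0.857). Pre-CD8 cells stood at 0.02 ± 0.20 against CDPs and at -0.21 ± 0.22 against pre-CD4 cells, and pre-CD4 cells at 0.23 ± 0.20 against CDPs. The 95% intervals of the 10 differences ran from -0.68 to 0.92, so a difference of 1 log2 unit lies outside all of them. No detection calls were used, and a level near 5 need not be a detected transcript. Ordered by mean, Batf2 ran from CDPs (5.27) over pre-CD8 cells (5.29), pre-CD4 cells (5.50) and CD172a DCs (5.58) to CD24 DCs (5.77), and no neighbours differed past the threshold.

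Of 16 measured interferon-stimulated genes, 2 were called higher and none lower in CD24 DCs against pre-CD8 cells, the comparison with the second largest Batf2 difference. They were Cxcl10, a chemokine (2.26 ± 0.28, adjusted p = 0.00019), and Gbp5, a guanylate-binding GTPase (1.83 ± 0.28, adjusted p = 0.000949). The median over the 16 was 0.08, against 0.05 over all genes, and Batf2 itself differed by 0.48. Of all genes, 2.65% were called higher there. In CD24 DCs against CDPs, the comparison with the largest Batf2 difference (0.50), 6 of the 16 were called higher and none lower. Their median was 0.59 against 0.12 over all genes, of which 8.3% were called higher. CD172a DCs against CDPs, where Batf2 differed by 0.31, had 8 called higher and none lower, beside 8.68% of all genes called higher. Pre-CD8 cells against CDPs, where Batf2 differed by 0.02, had 4 called higher and 1 lower, beside 2.29% of all genes called higher.

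Batf3 was next set beside 20 measured genes of the cDC1 lineage that depends on it. They were chosen as genes of this lineage, with earlier results of these data known. High counts of them in cells of the lineage thus follow largely from the choice. In pre-CD8 against pre-CD4 cells 11 of the 20 were called higher and none lower, beside 0.383% of all genes called higher. The median difference of the 20 was 2.01 against 0.01 over all genes. The Batf3 difference of 3.58 was exceeded there by Tlr3, a receptor for double-stranded RNA (5.51 ± 0.34, adjusted p = 5.16e-06), and by Rab7b, a GTPase of endosome traffic (4.02 ± 0.32, adjusted p = 3.31e-05). Cd36, a scavenger receptor, followed with 3.34 ± 0.37 (adjusted p = 0.000555), a call lost when the compared groups were fitted alone (adjusted p = 0.0889).

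In spleen most of these genes differed by more than Batf3. In CD24 against CD172a DCs 19 of the 20 genes were called higher, beside 3.21% of all genes. That count follows largely from the choice of cDC1 genes for the list. The median difference was 2.95 against -0.01 over all genes, and 19 of the 20 differences were larger than that of Batf3 (1.10). The largest was that of Xcr1, the chemokine receptor of cDC1s, at 4.39 ± 0.40 (adjusted p = 2.17e-05). Xcr1 read 5.80 and 5.62 in the CD172a DC arrays, in which Batf3 read 7.42 and 9.06, and 10.22, 10.41 and 9.66 in the CD24 DC arrays. In the CD172a DC arrays the median of the 20 genes was 6.32 and 6.13, against 9.76, 9.68 and 9.53 in CD24 DCs. CD172a DC array 2 thus lay within the CD24 DC range in Batf3 and below it in this median.

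**Figure D3:**
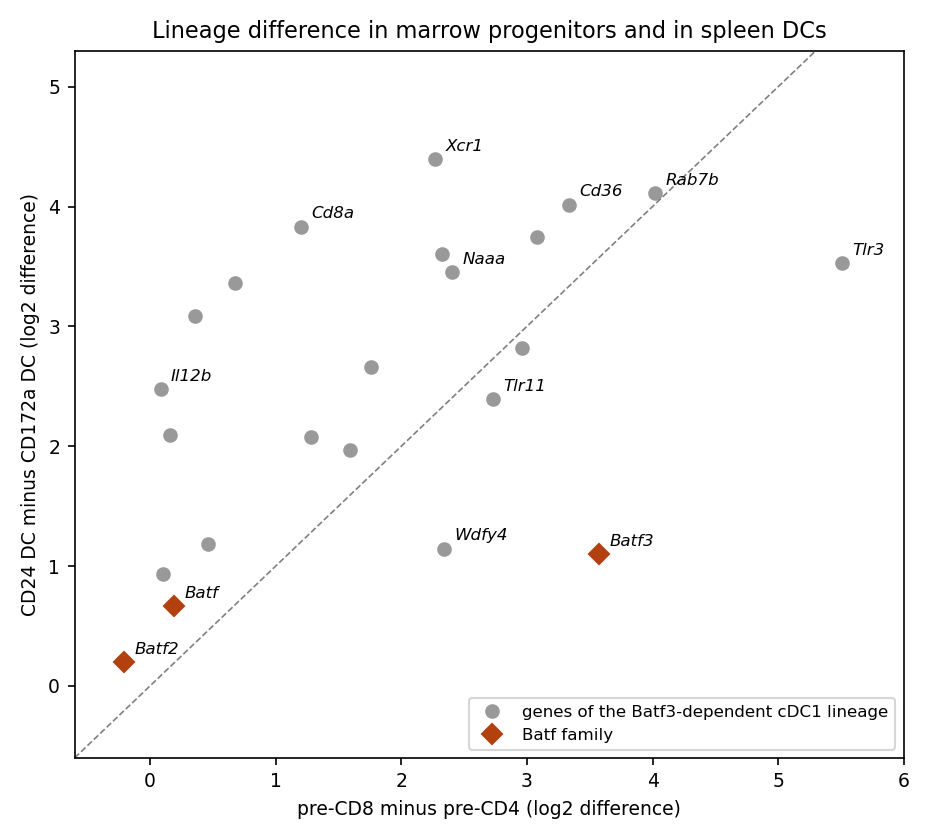
Lineage differences of the Batf family and of 20 genes of the cDC1 lineage. The x axis gives pre-CD8 minus pre-CD4 in marrow and the y axis CD24 DC minus CD172a DC in spleen, both as log2 differences of group means, and the dashed line marks equal differences. Batf3 lies at 3.58 and 1.10, below the line, and Xcr1 at 2.27 and 4.39, above it.

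Most of these genes were higher in CD24 DCs than in pre-CD8 cells, the comparison in which Batf3 was not called. In CD24 DCs against pre-CD8 cells 15 of the 20 were called higher and none lower (median 1.56, against 0.05 over all genes), while Batf3 stood at -0.16. The largest were Cd8a, a surface marker of cDC1s (4.68 ± 0.32, adjusted p = 3.14e-06), Il12b, the p40 chain of interleukin-12 (4.04 ± 0.23, adjusted p = 8.16e-07), and Cxcl9, a chemokine (3.96 ± 0.31, adjusted p = 7.97e-06). In the same comparison 587 genes, or 2.65%, were called higher among all genes.

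In pre-CD8 cells against CDPs, where Batf3 rose by 4.55, 15 of the 20 were called higher and none lower, beside 2.29% of all genes called higher. The median of the 20 was 2.25, against 0.03 over all genes. Tlr3 led with 6.15 ± 0.31 (adjusted p = 2.01e-07), followed by Naaa, a lysosomal amidase (4.38 ± 0.30, adjusted p = 2.76e-06), and Cd36 (3.70 ± 0.34, adjusted p = 2.87e-05). In pre-CD4 cells against CDPs, where Batf3 was not called, 2 of the 20 were called higher (2.32% of all genes), Btla, an inhibitory receptor (2.05 ± 0.30, adjusted p = 0.00169), and Naaa (1.97 ± 0.30, adjusted p = 0.00199). In CD172a DCs against pre-CD4 cells, where Batf3 rose by 2.31, 7 of the 20 were called higher and none lower, beside 4.7% of all genes called higher. The median of the 20 was 0.91 against 0.09 over all genes. The largest were Cxcl9 (4.11 ± 0.33, adjusted p = 5.06e-06), Tlr11, a receptor for profilin (2.66 ± 0.45, adjusted p = 0.00158), and Cd36 (2.32 ± 0.37, adjusted p = 0.00099). Comparisons that share a population share its arrays, so these counts are not independent of one another.

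The genes of the IRF proteins that Batf3 works with were distributed over the populations in other ways. Irf8, the IRF partner of Batf3 in cDC1s, read 11.53, 11.51 and 11.44 in CDPs, 12.16 and 12.12 in pre-CD8 cells, 12.05 and 11.92 in pre-CD4 cells, 11.88, 12.15 and 11.68 in CD24 DCs, and 7.98 and 8.80 in CD172a DCs. It was thus high in CDPs and pre-CD4 cells, where Batf3 was low, and 11.4-fold lower in CD172a DCs than in CD24 DCs, where Batf3 was not called. That Irf8 difference was 3.51 ± 0.24 (CD24 DCs minus CD172a DCs, adjusted p = 2.43e-06), while pre-CD8 minus pre-CD4 cells gave 0.15 ± 0.26 (adjusted p = 1.00). Irf4, the other IRF partner, read 8.09 and 8.84 in CD172a DCs against 5.84, 5.52 and 5.07 in CD24 DCs, a difference of -2.99 ± 0.35 for CD24 minus CD172a DCs (adjusted p = 0.000206). In pre-CD8 against pre-CD4 cells it was -2.15 ± 0.39 (adjusted p = 0.0191), a call lost without pre-CD4 array 2 or either pre-CD8 array and when the compared groups were fitted alone (adjusted p = 0.211). Irf4 averaged 4.95 in pre-CD8 cells and 7.10 in pre-CD4 cells. CD172a DCs thus had Batf3 and Irf4 high and Irf8 low, while pre-CD8 cells and CD24 DCs both had Batf3 and Irf8 high and Irf4 low.

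**Figure D4:**
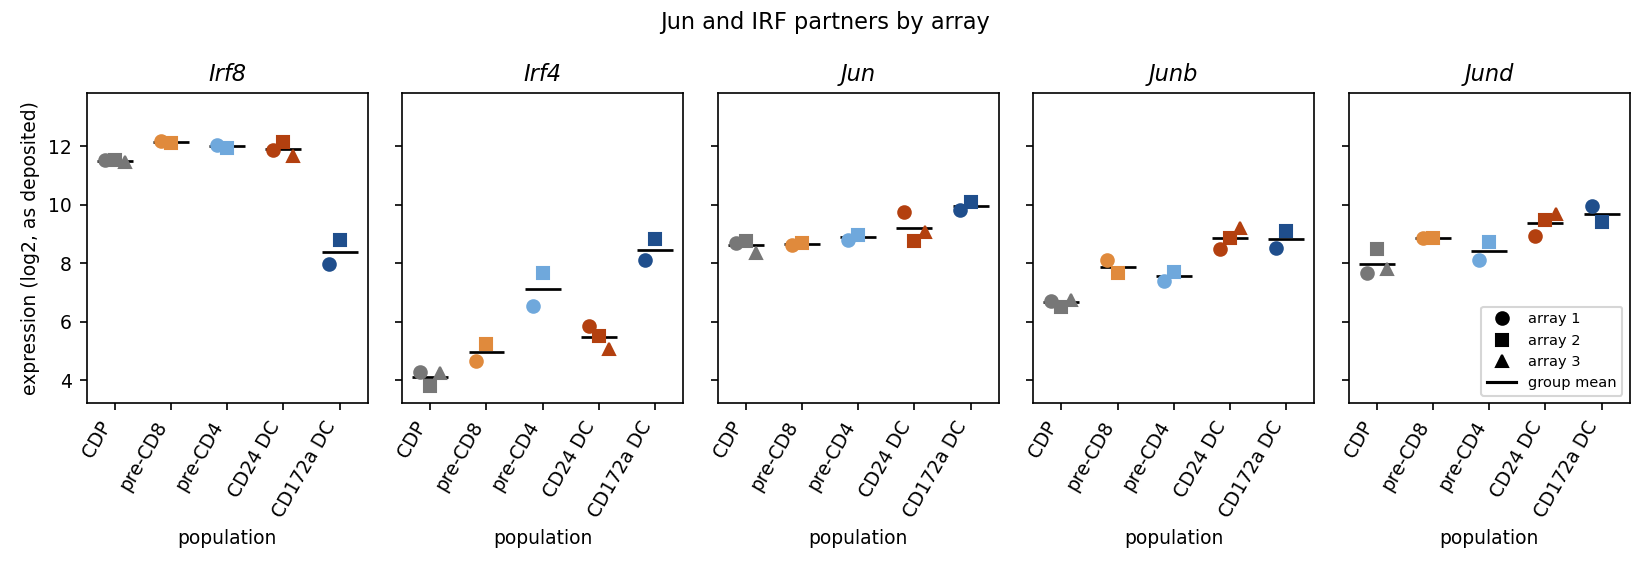
Expression of the Jun and IRF partner genes on each array. The x axis gives the population and the y axis the log2 value as deposited, with points for arrays and bars for group means. Irf8 lies at 7.98 and 8.80 in CD172a DCs and at 11.44 or above elsewhere, and Irf4 at 8.09 and 8.84 in CD172a DCs and at 5.84 or below in CD24 DCs.

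The 3 Jun genes, which encode the bZIP partners of Batf proteins, had their highest group means in spleen. Junb averaged 7.88 ± 0.32 in pre-CD8 cells and 6.65 ± 0.13 in CDPs, a difference of 1.23 ± 0.26 (adjusted p = 0.0133) that was lost without CDP array 2 or pre-CD8 array 1. The same comparison gave 0.05 ± 0.26 for Jun (adjusted p = 0.968) and 0.87 ± 0.31 for Jund (adjusted p = 0.158), beside 4.55 for Batf3. Between pre-CD8 and pre-CD4 cells, where Batf3 differed by 3.58, none of the 3 was called (-0.23 for Jun, 0.33 for Junb and 0.44 for Jund). In CD172a DCs against pre-CD4 cells Batf3 rose, and Batf was lower just inside the threshold (adjusted p = 0.0491 in limma). All 3 Jun genes were called higher there, beside 4.7% of all genes. The differences were 1.07 ± 0.29 for Jun (adjusted p = 0.0254), 1.26 ± 0.28 for Junb (adjusted p = 0.00924) and 1.28 ± 0.34 for Jund (adjusted p = 0.0236). Each of these calls was lost in at least 1 fit that left out a CD172a DC or pre-CD4 array, and that of Jund also with the mean of its probe sets (0.69, adjusted p = 0.0511).

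Next came 10 other measured AP-1 and ATF genes, bZIP relatives of the Batf family. In pre-CD8 cells against CDPs, where 2.29% of all genes were called higher, 3 of the 10 were called higher with Batf3. These were Atf3 (1.64 ± 0.43, adjusted p = 0.0471), Fosb (1.41 ± 0.30, adjusted p = 0.013) and Fos (1.19 ± 0.29, adjusted p = 0.0288), and none kept its call in every leave-one-out fit. None of the 10 was called between pre-CD8 and pre-CD4 cells by limma. Among 14 measured transcription factors of DC lineage choice, 1 was called higher with Batf3 in that comparison, Id2, an inhibitor of E proteins (4.67 ± 0.22, adjusted p = 2.77e-07). The E protein gene Tcf4 was the 1 called lower (-1.91 ± 0.21, adjusted p = 0.000555). Of all genes, 0.383% were called higher there and 0.32% lower.

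The genes whose pattern was most like that of each member were found by Pearson r over the 12 arrays, among 5165 genes whose group means spanned at least 1 log2 unit. The arrays share their groups, so r mainly describes agreement of the 5 group levels. Likeness of the named genes to the member in those levels is thus part of how they were picked. For Batf3 these were Id2 (r = 0.97), the creatine kinase gene Ckb (0.96), the lipoprotein receptor gene Apobr (0.96), the chemokine receptor gene Cxcr3 (0.96) and Iqsec1, which encodes an exchange factor for ARF GTPases (0.95). In all, 43 genes had r above 0.9 with Batf3 and 19 below -0.9. Id2 read 10.06 and 10.14 in pre-CD8 cells against 5.40 and 5.46 in pre-CD4 cells, and 10.15, 10.04 and 9.87 in CD24 DCs against 8.34 and 8.74 in CD172a DCs. Like Batf3 it was high in CD172a DCs relative to their marrow progenitor (3.10 ± 0.22, adjusted p = 1.88e-06).

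For Batf the 5 genes were Timm8b, of mitochondrial protein import, Itgb1bp1, an integrin-binding protein, Trappc6b, of vesicle tethering, Snx1, a sorting nexin, and Emc7, of the endoplasmic reticulum membrane complex, all at r = 0.95. Batf had r above 0.9 with 64 genes and below -0.9 with 16. As for Batf, CD172a DCs had the lowest mean of all 5, which follows from how these genes were picked. The differences from CDPs were -1.17 for Timm8b, -1.01 for Itgb1bp1, -1.15 for Trappc6b, -1.08 for Snx1 and -0.73 for Emc7, the last not called (adjusted p = 0.0763). The named genes moved with single arrays. Without 1 array or after quantile normalization, between 2 and 5 of the 5 stayed the closest to Batf3, and between 0 and 5 to Batf. The group means of Batf2 spanned 0.50, under the minimum of 1, so no genes were named for it.

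**Figure D5:**
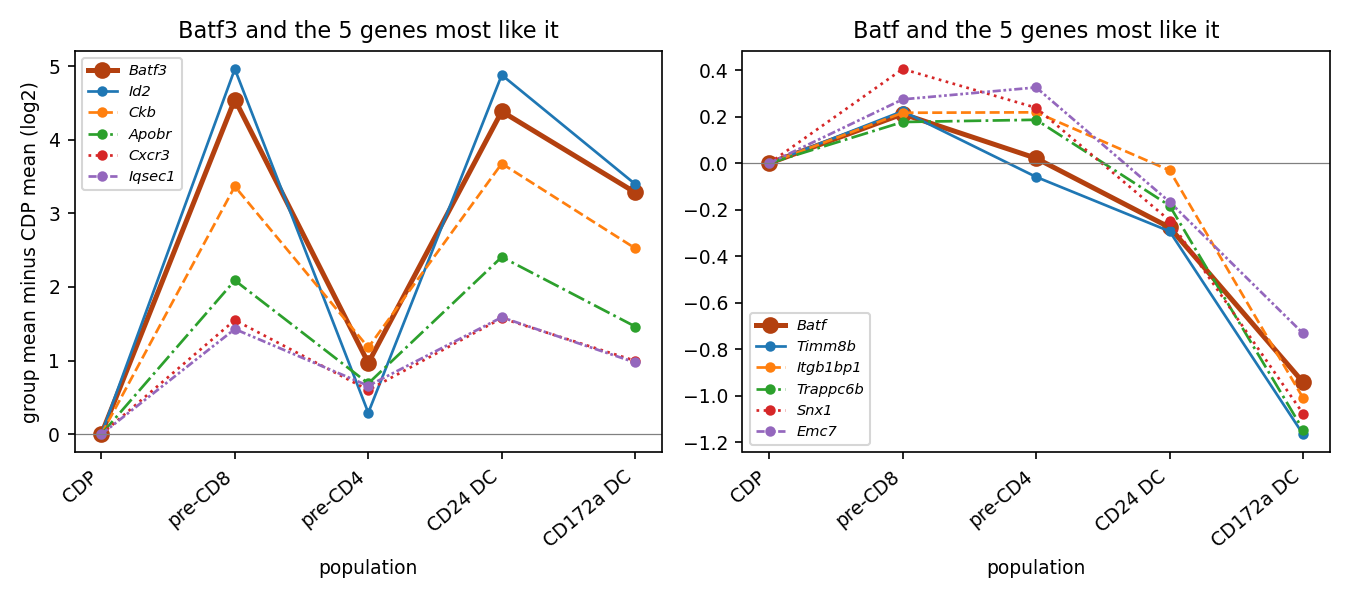
Group means of Batf3 and Batf and of the 5 genes most like each. The x axis gives the population and the y axis the group mean minus the CDP mean in log2 units, with the member as the thick line. Batf3 and Id2 stand at 4.55 and 4.96 in pre-CD8 cells and at 0.97 and 0.29 in pre-CD4 cells, and Batf falls to -0.94 in CD172a DCs.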

How the data were processed

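The authors deposited log2 values, 1 for each probe set on each array, and these were used without further normalization. Per the labels' protocols, the RNA was amplified by a NuGEN Ovation Pico kit and given biotin labels. How the arrays were background-corrected, summarized and normalized is not given in the sources used here. Of 35145 probe sets, the platform annotation gave 1 gene symbol to 23525, several to 1810 and none to 9810. The 22184 genes with a symbol of their own were kept, each by its probe set with the highest mean.

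Differences were tested by lmFit and eBayes of limma 3.58.1 (R 4.3.3), with 1 fit over all 12 arrays and a mean for each of the 5 groups (residual degrees of freedom 7, prior 6.18). Two-sided p-values were adjusted by Benjamini-Hochberg over all 22184 genes, and those under 0.05 were called. The model was tested on simulated data with independent errors and the same spread in all groups. That test cannot show how the p-values behave where arrays correlate by number or groups differ in spread. Precision is limited by the number of arrays, 2 or 3 a group. The members and the lists (73 genes, 65 measured) were chosen with earlier results of these data known. Among the genes not analysed here were Fosl1, Zeb2, Clec9a, Oas1a, Gbp2 and Ifi44. Named are the members, all Jun and IRF partners, up to 3 called genes with the largest difference of each other list in a comparison, and the 5 genes with the highest r to a member whose group means span at least 1. H2-Ab1, Ms4a1, Cd79b, Sirpa, Clec4a4, Clec10a, Itgam, Esam, Siglech, Bst2, Spib, Ly6d and Ccr9 are named outside this rule as cell type markers. Itgae and Cadm1 are named as listed genes called in the contrast of contrasts. All of these were chosen after their values were seen.

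The array numbers of the titles were checked as pairs. Deviations from group means correlated at 0.10 to 0.42 in all 13 same-number pairs among CDP, pre-CD4, pre-CD8 and CD24 DC, and at -0.16 to 0.02 in the 8 pairs with CD172a DC. Every r among those 4 groups exceeded 0.1, so their numbers were read as pairs. Deviations in a group of 2 arrays mirror each other, so pre-CD4 and pre-CD8 gave the same r, 0.41, for both numbers. These r values are thus not all separate evidence. The reported fit has no term for the number, so its p-values leave out this pairing, and the fit with it as a block is an alternative. The labels do not say what a number marks. The 18 alternatives were quantile normalization, the mean of probe sets, a filter at the 40th percentile of mean level, the array number as a block, a fit of the compared groups alone, a trend and robust prior, and leaving out each of the 12 arrays.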

Additional observations from a re-analysis of the deposited data

Results flagged for a closer look

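For 7 of the 65 measured genes of the lists the lineage difference in spleen (CD24 DC minus CD172a DC) differed from that in marrow (pre-CD8 minus pre-CD4). They were called in the limma contrast of contrasts, which called 1.03% of all genes. Batf3 stood at -2.48 there and was not called. Irf8 differed by 3.51 in spleen and 0.15 in marrow, a change of 3.36 ± 0.35 (adjusted p = 0.000485). Id2 differed by 1.48 in spleen and 4.67 in marrow, a change of -3.19 ± 0.30 (adjusted p = 0.000143). The change was 1.34 ± 0.29 for Tcf4 (-0.58 in spleen and -1.91 in marrow, adjusted p = 0.0456). It was 2.73 ± 0.50 for Itgae (3.09 in spleen and 0.36 in marrow, adjusted p = 0.0183) and 2.69 ± 0.51 for Cadm1 (3.36 and 0.68, adjusted p = 0.0212). It was 2.63 ± 0.47 for Cd8a (3.83 and 1.20, adjusted p = 0.0168) and 2.39 ± 0.35 for Il12b (2.47 and 0.08, adjusted p = 0.00392).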

How the results depend on the processing

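The 6 called differences of Batf3 were called under all 18 alternatives. For those that involve CD172a DCs these fits cannot show the effect of that group's own spread. Its 2 arrays had a Batf3 SD of 1.15, and leaving out either left 1 array. Quantile normalization turned the sign of Batf2 in pre-CD8 against CDP (-0.022) and in CD172a DC against pre-CD4 (-0.0090) and of Junb in CD24 DC against CD172a DC (-0.12). It left 1 of 3 members called in CD172a DC against pre-CD4 (Batf at -0.89 was not) and called 1, Batf3 at -2.58, in the contrast of contrasts. The filter at the 40th percentile called 2 members in CD24 DC against CDP, adding Batf2 (0.50), and the mean of probe sets turned Jund in CD24 DC against CD172a DC to 0.0026. With the array number as a block the sign turned for Batf in pre-CD4 against CDP (-0.15), Jun in pre-CD8 against CDP (-0.042) and Junb in CD24 DC against CD172a DC (-0.077), and no call of a member changed. The causes were not tested.

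Leaving out each array in turn gave Batf -0.022 to 0.45 in pre-CD8 against CDP, -0.079 to 0.18 in pre-CD4 against CDP, -0.044 to 0.42 in pre-CD8 against pre-CD4, -1.08 to -0.79 in CD172a DC against CDP, 0.50 to 0.92 in CD24 DC against CD172a DC, -1.10 to -0.83 in CD172a DC against pre-CD4 and -1.39 to -0.92 in CD172a DC against pre-CD8. It gave Batf2 -0.045 to 0.059 in pre-CD8 against CDP and -0.076 to 0.23 in CD172a DC against pre-CD4. Batf3 ranged from 0.28 to 1.92 in CD24 DC against CD172a DC, -0.42 to 0.10 in CD24 DC against pre-CD8, -2.08 to -0.45 in CD172a DC against pre-CD8 and -3.29 to -1.66 in the contrast of contrasts. Jun ranged from -0.073 to 0.12 in pre-CD8 against CDP and Junb from -0.26 to 0.33 in CD24 DC against CD172a DC. Members called ranged from 1 to 2 in CD172a DC against CDP and against pre-CD4, and from 0 to 1 in CD24 DC against CD172a DC, CD172a DC against pre-CD8 and the contrast of contrasts. A population left with 1 array was assumed to vary like the others.

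The number of genes called over all 18 alternatives went down to 510 in pre-CD8 against CDP (1057 as reported), 298 in pre-CD4 against CDP (1008) and 2809 in CD172a DC against CDP (5065). It ran from 34 to 194 in pre-CD8 against pre-CD4 (156), 556 to 1596 in CD24 DC against CD172a DC (1239), 571 to 1940 in CD24 DC against pre-CD8 (1399) and 99 to 330 in the contrast of contrasts (229). It went down to 1233 in CD172a DC against pre-CD4 (2821), 1311 in CD24 DC against pre-CD4 (2524) and 921 in CD172a DC against pre-CD8 (2088).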
